A study of Mus musculus with 8 samples.

Results

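In mouse macrophages, 64 of 11415 measured genes combined a strong induction by LPS with mature mRNA at about the same level when IL-10 was given together with LPS, and these 64 genes are described here. LPS, a bacterial lipopolysaccharide, is sensed by macrophages through Toll-like receptor 4, whose adaptors switch on NF-kB, MAP kinases and an interferon response, and with them a large set of inflammatory genes. IL-10 is a cytokine that signals through its receptor, JAK kinases and STAT3 and is known for lowering much of that response. The 64 genes were chosen for mean mRNA that was about the same with and without IL-10.

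Members were chosen by 3 mean mRNA values per gene, those of untreated, LPS and IL-10 throughout cells. The mRNA signal with LPS had to be 200 or more normalised reads, the ratio of LPS to untreated signal, with 10 added to both sides, had to be 8 or more, and the ratio of the signal with LPS and IL-10 throughout to that with LPS alone had to lie between 0.75 and 1.33. Symbols of several families (among them NF-kB, TNF, chemokine, interleukin, Toll-like receptor and solute carrier genes) were left out by name. Of the 11415 genes of the table, 437 passed both induction thresholds, 83 of these were dropped by name, and 64 of the remaining 354 were members. Of the 83 dropped genes, 12 had a ratio inside the window: Tnfaip3, Tnip1, Tlr1, Birc3, Tnfrsf8, Tnfsf9, Cdk6, Dusp2, Cd200, Nfkbia, Ptgs2 and Cd274. Among the 354 induced genes the members made up 18.1%, and 204 genes (57.6%) had a ratio of 0.5 or less. The ratio was 2 or more in 18 genes, lay between 0.5 and 0.75 in 62 and between 1.33 and 2 in 6. The median ratio of the 354 was 0.421, so a ratio near 1 was the less common outcome among strongly induced genes.

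RNA came from bone marrow-derived macrophages, cells grown out of marrow precursors with M-CSF for 5 days, of IL10-/-RAG2-/- mice on the 129S6/SvEvTac strain. By this label all 4 groups lack an intact Il10 gene, and an intact Rag2 gene, which lymphocytes need to develop. The mice's age is not given in the sources used here. Cells were left untreated, given LPS at 1 ng/mL for 195 min, given LPS with IL-10 at 1 ng/mL for the same 195 min (IL-10 throughout), or given the same LPS with IL-10 only in its final 30 min (late IL-10, whose dose the labels do not repeat). Each group had 2 libraries, which the series' design text ties to separate macrophage pools, so n = 2 throughout. The libraries were ribosome-depleted and directional, and each gene has a value for mature mRNA and another for pre-mRNA, the unspliced precursor.

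Depth ran from 21412968 to 53172133 reads per library for mRNA and from 8661271 to 31508394 for pre-mRNA, summed over the table. Values below are normalised reads, the reads of a library divided by its size factor, and the library named A in each group is the one with the larger factor. Macrophage markers were abundant in all 8 libraries: Csf1r, the M-CSF receptor, held 83293 to 129546 normalised mRNA reads and Cd68, a lysosomal macrophage protein, 24650 to 38946. The summed signal of 14 macrophage markers was 613527 to 616898 in untreated libraries, 904655 to 946318 under LPS alone, 722716 to 748258 in the IL-10 throughout group, and 907117 to 923478 in the late IL-10 group. Some markers of other cells also moved with LPS: 5 of 10 dendritic cell markers summed to 1363 to 2911 untreated, 9528 to 17955 under LPS alone, 3057 to 4661 in the IL-10 throughout group, and 8944 to 16008 in the late IL-10 group. The sum of 7 of 13 neutrophil markers was 1893 to 2607, 2488 to 3000, 2138 to 2707 and 2465 to 3244 in the same order. Its untreated and LPS ranges overlapped, although limma called 5 of these 7 genes higher with LPS in mRNA, where 19.2% of all genes were. The sum of 4 of 10 stromal and endothelial markers was 1346 to 2424, 3743 to 4359, 1338 to 1441 and 3659 to 4270. Of 7 erythroid and megakaryocyte markers only 1 gene, Pf4, was in the table. It held 115.4 to 422.0, 1651 to 1719, 431.4 to 765.8 and 1536 to 1717. Lower with LPS was the sum of 3 of 9 T cell markers, with 3341 to 5608, 449.2 to 762.0, 409.1 to 796.2 and 542.1 to 956.7. Of these 3, limma called Cd28 lower and Lck higher with LPS in mRNA. Also lower was Il7r, the only 1 of 6 NK and innate lymphoid markers in the table, with 15304 to 16509, 4081 to 7147, 3024 to 6601 and 4122 to 7168. The part of other cells in the results was not tested. The defining B cell, mast cell and T cell receptor genes were not analysed here. In bulk RNA, fewer cells of a type and less RNA per cell cannot be told apart. Reads over Il10 were present in every library, from 144 to 6199, and those over Rag2 ran from 38.8 to 82.7. Which part of either gene is deleted is not given in the sources used here, so these reads do not check the labels.

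The window is a ratio of means, and single libraries weigh on it. With the groups' total reads in place of the deposited scaling, 51 genes met the rule, 32 of them among the 64. Without LPS library A, 43 genes met it (34 of the 64), without IL-10 throughout library A, 44 (36 of the 64), without LPS library B, 69 (42 of the 64), and without IL-10 throughout library B, 78 (52 of the 64). That IL-10 left these genes unchanged holds for mean mRNA only, by the rule. The fitted log2 change of mRNA with IL-10 throughout had a 95% interval within 1 log2 unit of 0 in 27 of the 64 genes, and the pre-mRNA of many was below its LPS level, as described further on.

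Promoter stretches of 8 members are shown because they carry letters of the factors named above. RefSeq promoter windows (build GRCm38.p6, 250 bases before to 50 after a start site) were found for 55 of the 64 genes. Both strands were searched for the NF-kB consensus (10 bases, named only), for the interferon-response element (TTTC, any 2 bases, TTTC), for the STAT site written TTCNNNGAA and for the AP-1 site written TGANTCA. Motifs and stretches were chosen after the values were known. An NF-kB match lay in a window of 8 of the 55 genes (14.5%), against 9.15% of 164 genes with a ratio of 0.5 or less, 6.23% of 9216 genes of the table and 5.14% of all 27025 RefSeq genes. The interferon-response element was in windows of 2 of the 55 genes (3.64%) and of 38 of the 164 lowered genes (23.2%), against 4.07% of the table's genes and 3.99% of all RefSeq genes. The STAT site was in 6 of the 55 (10.9%), 13.4% of the lowered genes, 8.38% of the table's genes and 9.55% of all RefSeq genes, and the AP-1 site in 4 of the 55 (7.27%), 14.6% of the lowered genes, 6.34% of the table's genes and 8.97% of all RefSeq genes. No match to one of the motifs overlapped a match to another in the 74 windows of the members. A match describes letters only.

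The 8 stretches of 110 bases follow 5′ to 3′ on the gene's strand, with the match in capitals: an NF-kB match in the first 6, the interferon-response element in Edn1 and the STAT site in Fpr2. In the GENCODE M21 models those of Sdc4, Sod2, Stat5a and Col27a1 lie within the span of the gene and outside its exons, and those of Casp4, Fnbp1l, Edn1 and Fpr2 lie outside it.
Sdc4, chr2:164443211-164443320, minus strand: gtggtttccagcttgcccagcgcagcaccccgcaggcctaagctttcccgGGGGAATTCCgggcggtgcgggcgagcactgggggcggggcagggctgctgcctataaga
Sod2, chr17:13007706-13007815, plus strand: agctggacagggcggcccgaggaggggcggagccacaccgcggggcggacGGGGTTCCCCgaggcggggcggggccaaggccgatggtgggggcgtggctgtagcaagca
Stat5a, chr11:100860234-100860343, plus strand: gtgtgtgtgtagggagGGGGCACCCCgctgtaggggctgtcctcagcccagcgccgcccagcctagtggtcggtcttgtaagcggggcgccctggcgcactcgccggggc
Col27a1, chr4:63215179-63215288, plus strand: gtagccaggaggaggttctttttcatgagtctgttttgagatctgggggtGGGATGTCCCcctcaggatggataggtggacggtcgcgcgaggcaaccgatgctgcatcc
Casp4, chr9:5308706-5308815, plus strand: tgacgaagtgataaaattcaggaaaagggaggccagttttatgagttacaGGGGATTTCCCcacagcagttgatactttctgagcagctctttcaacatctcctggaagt
Fnbp1l, chr3:122619807-122619916, minus strand: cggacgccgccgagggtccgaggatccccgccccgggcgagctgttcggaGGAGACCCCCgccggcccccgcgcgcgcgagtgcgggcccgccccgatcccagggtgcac
Edn1, chr13:42301348-42301457, plus strand: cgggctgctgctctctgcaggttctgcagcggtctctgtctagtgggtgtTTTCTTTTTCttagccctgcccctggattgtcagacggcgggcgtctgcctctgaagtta
Fpr2, chr17:17887696-17887805, plus strand: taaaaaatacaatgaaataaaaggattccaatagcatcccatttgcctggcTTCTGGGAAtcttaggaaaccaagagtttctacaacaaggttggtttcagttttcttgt
Casp4 holds a pair of overlapping NF-kB matches in its stretch and Sdc4, whose mRNA was the most abundant of the set per kilobase, holds 1 match at 82 bases before its start site.

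The largest levels among the 64 genes belonged to Sdc4, which encodes syndecan-4, a cell-surface heparan sulphate proteoglycan (chromosome 2, GRCm38). Its mRNA held 3571 and 3043 normalised reads in the untreated libraries A and B, 142802 and 303642 under LPS alone, 313790 and 152529 in the IL-10 throughout group, and 316193 and 146088 in the late IL-10 group. All 6 treated libraries were far above both untreated ones, and the values of the 3 treated groups overlapped. Overlap here and below is of libraries not matched between groups, and it does not show that the groups were alike. With libraries matched by their values, as described further on, both pairs can differ in the same direction in spite of it. Per kilobase of exon the mean LPS level was 87641 for Sdc4, 44701 for Plek (pleckstrin, a protein kinase C substrate of leukocytes), 32501 for Ehd1 (a membrane-recycling ATPase), 30512 for Junb and 26721 for Gpr84. At the other end stood Itgb8 (an integrin subunit that activates TGF-beta), with 40.3 normalised reads per kilobase, and Elavl4 (an RNA-binding protein), with 45.9. The 64 genes were thus spread over more than 3 orders of magnitude in level per length, and the ratio of LPS to untreated signal ran from 8.03 (Bahcc1) to 277 (Fpr2) with a median of 19.8.

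**Figure D1:**
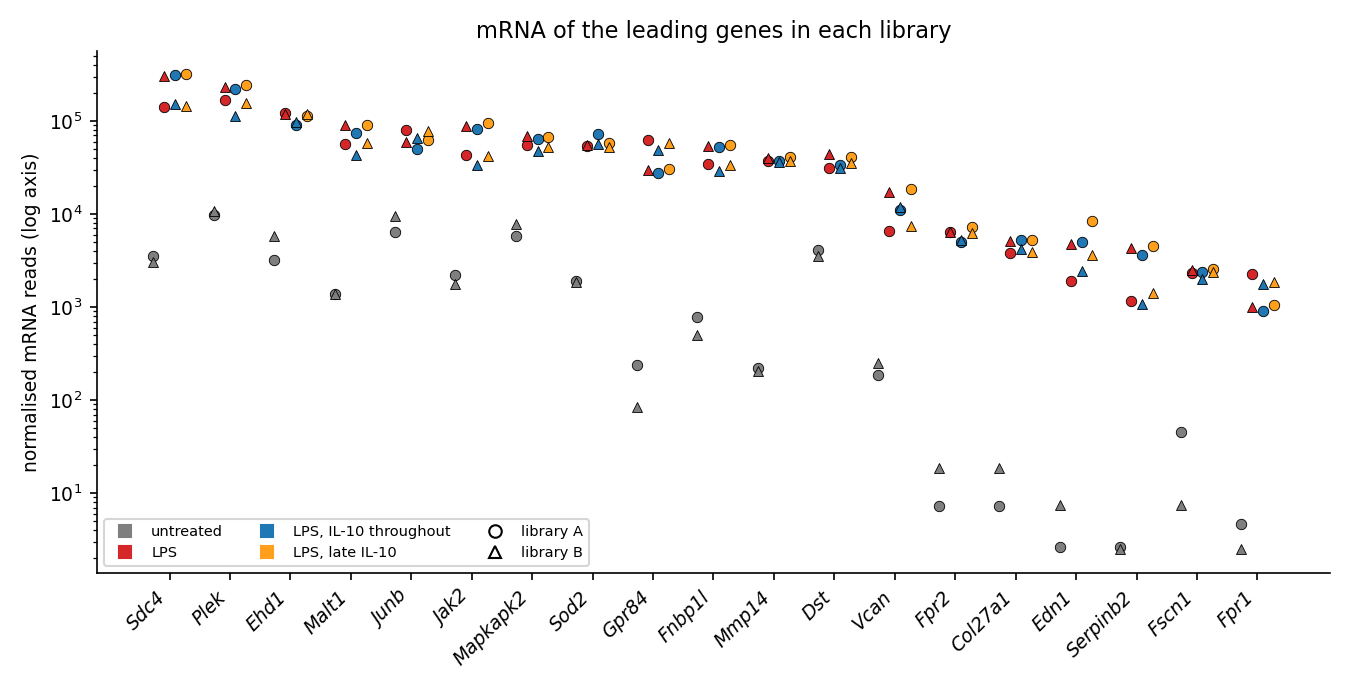
Normalised mRNA reads (log axis) of the 19 genes with the highest LPS level or the largest induction, 1 point per library, coloured by group, circles for library A and triangles for library B. The untreated points lie below all treated points of the same gene, and the 3 treated groups overlap for most genes, as for Sdc4 with 142802 to 303642 in LPS and 152529 to 313790 with IL-10 throughout.

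With 10 added to both sides of the ratio, the largest induction of a single gene was that of a surface receptor, Fpr2. By the fitted log2 change of mRNA from untreated to LPS, Serpinb2 (9.29) and Edn1 (9.08) were above Fpr2 (8.96). Fpr2, a formyl peptide receptor that guides phagocytes to bacterial products, held 7.28 and 18.6 normalised mRNA reads in untreated cells, 6341 and 6348 under LPS alone, 5037 and 5214 in the IL-10 throughout group, and 7170 and 6299 in the late IL-10 group. Its neighbour Fpr1, a second formyl peptide receptor 3883 bases away on chromosome 17, held 4.63 and 2.48 untreated, 2251 and 995.9 under LPS alone, 913.3 and 1780 in the IL-10 throughout group, and 1043 and 1850 in the late IL-10 group. Both libraries with IL-10 throughout lay below both LPS libraries for Fpr2, whereas the groups of Fpr1 overlapped, its LPS libraries being more than 2-fold apart. With libraries matched by their values, Fpr1 was also lower with IL-10 throughout in both pairs, from 995.9 to 913.3 and from 2251 to 1780. Fpr1 and Fpr2 are paralogs, and how reads shared by close copies were counted is not given in the sources used here.

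Gpr84, a receptor for medium-chain fatty acids, held 240.1 and 84.4 normalised mRNA reads untreated, 62647 and 29540 under LPS alone, 27609 and 48792 in the IL-10 throughout group, and 30459 and 58138 in the late IL-10 group. Adora2b, an adenosine receptor, held 105.8 and 225.9 untreated, 6741 and 6746 under LPS alone, 6677 and 5265 in the IL-10 throughout group, and 6146 and 5614 in the late IL-10 group. Both libraries of each IL-10 group lay below both LPS libraries for Adora2b, whereas those of Gpr84 overlapped them. With libraries matched by their values, Gpr84 was lower with IL-10 throughout in both pairs, from 29540 to 27609 and from 62647 to 48792. With late IL-10 its pairs went in opposite directions. The chemokine receptor gene Ccr3 had the largest difference between LPS libraries of the set: 25.1 and 4.96 untreated, 213.3 and 1137 under LPS alone, 1404 and 350.7 in the IL-10 throughout group, and 1431 and 207.2 in the late IL-10 group. Its ratio of 1.30 for IL-10 throughout was the highest of the 64, and libraries of 1 group differed far more than the group means.

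Further members of this class include Gpr132, a lysophospholipid-sensing receptor, Calcrl, the shared receptor chain for adrenomedullin and calcitonin gene-related peptide, Tarm1, an activating receptor of myeloid cells, Fas, the death receptor, Fzd1, a Wnt receptor, with Sdc4, Itgb8 and Lrrc4, a leucine-rich repeat adhesion protein. Over the 14 receptors and adhesion molecules the median induction was 30.2, and the mRNA ratio of IL-10 throughout to LPS had a median of 0.829 (0.759 to 1.30). Fas mRNA held 119.7 and 162.6 untreated, 2225 and 3488 under LPS alone, 2877 and 1635 in the IL-10 throughout group, and 3845 and 2152 in the late IL-10 group. Its treated groups overlapped.

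Signalling genes of the set included Jak2 and Stat5a, which act in cytokine signalling. Neither is in the list of the IL-10 receptor and STAT3 response used further on. Jak2, a kinase of many cytokine receptors, held 2225 and 1780 normalised mRNA reads untreated, 42605 and 89315 under LPS alone, 81317 and 34054 in the IL-10 throughout group, and 95820 and 42388 in the late IL-10 group. Stat5a, a transcription factor that JAK kinases activate, held 1017 and 966.9 untreated, 6463 and 17941 under LPS alone, 18011 and 8137 in the IL-10 throughout group, and 20680 and 7392 in the late IL-10 group. For both genes the 2 libraries of each treated group differed 2-fold or more and the groups overlapped. Stat5a overlaps the antisense gene Stat3 by 72 bases and has a close paralog. The kit marks strand, but whether the counting used it is not given in the sources used here.

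Malt1, a paracaspase that couples receptors to NF-kB, held 1398 and 1385 untreated, 57204 and 91174 under LPS alone, 73511 and 42758 in the IL-10 throughout group, and 90565 and 57732 in the late IL-10 group. Mapkapk2, the kinase downstream of p38 that stabilises inflammatory mRNAs, held 5802 and 7898 untreated, 55755 and 68378 under LPS alone, 63770 and 47580 in the IL-10 throughout group, and 67280 and 52663 in the late IL-10 group. Junb, an AP-1 subunit, held 6479 and 9442 untreated, 80779 and 59635 under LPS alone, 49513 and 64915 in the IL-10 throughout group, and 61997 and 77992 in the late IL-10 group. In all 3 genes the treated groups overlapped. With the libraries matched by their values, the IL-10 throughout value was below the LPS value in both pairs for each of them. Junb, Fzd1 and Lrrc4 have pre-mRNA listed at 0 in every group, as do 261 genes of the table in all.

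Zc3h12a, which encodes the endonuclease Regnase-1 that cuts inflammatory mRNAs, held 1241 and 1766 normalised mRNA reads untreated, 15934 and 14572 under LPS alone, 16996 and 17993 in the IL-10 throughout group, and 15071 and 17364 in the late IL-10 group. It was 1 of 3 members, with Sod2 and Mefv, whose IL-10 throughout libraries both lay above both LPS libraries. Src, a tyrosine kinase, Pde4b, a phosphodiesterase that breaks down cyclic AMP, Spred1, an inhibitor of the Ras pathway, Plek, the transcription factors Klf7 and Tfec, the stress-response regulator Nupr1 and Phlda1 complete the 14 genes of this class, whose mRNA ratio with IL-10 throughout had a median of 0.967 (0.784 to 1.23).

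Secreted and matrix proteins had the highest median induction, 44.6 over 10 genes. Edn1, the vasoconstrictor endothelin-1, held 2.65 and 7.45 normalised mRNA reads untreated, 1915 and 4729 under LPS alone, 4947 and 2425 in the IL-10 throughout group, and 8449 and 3623 in the late IL-10 group. Serpinb2, plasminogen activator inhibitor 2, held 2.65 and 2.48 untreated, 1155 and 4296 under LPS alone, 3666 and 1093 in the IL-10 throughout group, and 4558 and 1430 in the late IL-10 group. Both genes were close to 0 in untreated cells and at least 2-fold apart between the libraries of each treated group, and the treated groups of Serpinb2 overlapped.

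Mmp14, a membrane-bound collagenase that activates other metalloproteinases, varied little between treated libraries, with 222.3 and 206.0 normalised mRNA reads untreated, 37557 and 39900 under LPS alone, 37049 and 36454 in the IL-10 throughout group, and 40886 and 37359 in the late IL-10 group. Both libraries with IL-10 throughout lay just below both LPS libraries. Cfb, complement factor B of the alternative pathway, held 93.9 and 65.8 untreated, 2567 and 4073 under LPS alone, 4234 and 4050 in the IL-10 throughout group, and 4885 and 3744 in the late IL-10 group. F7 and F10, the clotting factors VII and X, lie 1498 bases apart on the same strand of chromosome 8. F10 held 250.7 and 759.6 normalised mRNA reads untreated, 9849 and 11155 under LPS alone, 10902 and 9687 in the IL-10 throughout group, and 11356 and 9828 in the late IL-10 group. F7 held 22.5 and 55.9 untreated, 376.1 and 561.7 under LPS alone, 460.2 and 303.9 in the IL-10 throughout group, and 746.4 and 464.5 in the late IL-10 group. The treated groups of F10 overlapped. Those of F7 overlapped with LPS alone, while both late libraries lay above both with IL-10 throughout. The other secreted members are the matrix proteins Vcan (versican) and Col27a1, the granule proteoglycan Srgn (serglycin) and Acp5, the tartrate-resistant acid phosphatase.

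The cytoskeletal and membrane-traffic genes had a median induction of 18.2 over 10 genes. Ehd1 held 3188 and 5757 normalised mRNA reads untreated, 123283 and 117546 under LPS alone, 91621 and 98245 in the IL-10 throughout group, and 113195 and 120217 in the late IL-10 group. Its libraries with IL-10 throughout lay below those with LPS, a ratio of 0.788. Fnbp1l, an F-BAR protein of actin-driven membrane bending, held 785.8 and 505.2 untreated, 34614 and 53236 under LPS alone, 52604 and 28909 in the IL-10 throughout group, and 54725 and 33531 in the late IL-10 group. Fscn1 (the actin bundler fascin), Fmnl2 (a formin), Myo10 (a filopodial myosin), Dst (dystonin), Stx11 (a syntaxin of secretory granules), Rhbdf2 (iRhom2, which carries the TNF-shedding protease to the surface), Lztfl1 and Snn make up the rest.

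Among enzymes and intracellular defence genes, Sod2, the mitochondrial superoxide dismutase, held 1913 and 1871 normalised mRNA reads untreated, 54211 and 54996 under LPS alone, 72062 and 56682 in the IL-10 throughout group, and 58444 and 52637 in the late IL-10 group. Casp4, the caspase that binds cytosolic LPS, held 95.9 and 72.0 untreated, 1517 and 4415 under LPS alone, 3084 and 1395 in the IL-10 throughout group, and 5649 and 2138 in the late IL-10 group. Sod2 was even between LPS libraries and Casp4 was nearly 3-fold apart. Glrx (glutaredoxin), Acsl1 (a long-chain acyl-CoA synthetase), Car13 (a carbonic anhydrase), Chac1 (which degrades glutathione), Mefv (pyrin), Orai2 (a calcium channel subunit), Trim13 (a ubiquitin ligase) and Ext1 (a heparan sulphate polymerase) are the others, and the 10 genes had a median induction of 11.8. Mki67, the proliferation antigen Ki-67, was a member as well: it held 2624 and 1372 untreated, 30682 and 29668 under LPS alone, 32016 and 28376 in the IL-10 throughout group, and 30656 and 32121 in the late IL-10 group, and its treated groups overlapped closely.

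With IL-10 throughout the fitted mRNA change of the members, which the rule fixed near 0, ranged from -0.43 to 0.51 with a median of -0.10 on the log2 scale, against a median of -0.02 over all 11415 genes. In 19 of the 64 genes it was above 0 and in 45 below. Both IL-10 throughout libraries lay above both LPS libraries in 3 members and below in 7 (Adora2b, Ehd1, Ext1, Fmnl2, Fpr2, Fzd1 and Mmp14), where 20.6% and 21.3% of all genes do so. The rule used these values, so nothing is read from the counts. The members just inside the low end of the window were Casp4 (0.755), Fzd1 (0.759) and Ext1 (0.764), and the genes just outside it Marcksl1 (0.748), Ccdc146 (0.738) and Clic4 (0.733). At the high end Ccr3 (1.30), Mefv (1.26) and Cfb (1.248) were inside, and Foxp4 (1.38) and Aqp9 (1.40) outside. By induction Bahcc1 (8.03) was just inside and Ptprj (7.99) just outside, and by LPS level Elavl4 (247.2 normalised reads) was inside and Idi1 (188.4) outside.

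Unspliced pre-mRNA is short-lived and so is read as a measure of current transcription, and its values in the same contrast were lower. Of the 58 members with at least 50 normalised pre-mRNA reads in LPS, 34 (58.6%) had a ratio of IL-10 throughout to LPS below 0.75, 21 lay between 0.75 and 1.33 and 3 were above. The median ratio was 0.706, between 0.965 over 9310 genes of the table and 0.195 over 193 genes of the lowered class. As a fitted log2 change of pre-mRNA the median was -0.50 for the members and -2.37 for the lowered class. It was 1.165 for the 18 genes with an mRNA ratio of 2 or more. Both IL-10 throughout libraries lay below both LPS libraries in 27 of the 61 members with any pre-mRNA and above in 4, where 25.6% and 24.4% of all genes do so. The contrast chose the members, so these are values without a test.

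The lowest pre-mRNA ratio belonged to Ext1, with 134737 and 42333 normalised pre-mRNA reads under LPS alone, 23781 and 17058 in the IL-10 throughout group, and 90578 and 48258 in the late IL-10 group, a ratio of 0.231 beside 0.764 for its mRNA. Snn, a small membrane protein gene, held 3070 and 1564 under LPS alone, 791.3 and 303.1 in the IL-10 throughout group, and 3905 and 2296 in the late IL-10 group. Srgn held 4402 and 2215 under LPS alone, 1166 and 1032 in the IL-10 throughout group, and 3867 and 2524 in the late IL-10 group. In all 3 genes both libraries with IL-10 throughout were below both LPS libraries, and with late IL-10 they were not.

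Vcan pre-mRNA held 13243 and 4563 under LPS alone, 3420 and 2681 in the IL-10 throughout group, and 16255 and 7822 in the late IL-10 group, a throughout ratio of 0.343 beside 0.968 for mRNA. Tfec (0.401) and Fas (0.439) came next, and Jak2, with 73457 and 36136 in LPS and 40420 and 16602 with IL-10 throughout, had a ratio of 0.520. The Jak2 libraries of the 2 groups overlapped, although library A was lower than library A and library B than library B. Snn overlaps the antisense gene Litaf by 5213 bases, which bears on its value because the use of strand in counting is not given. The same limit holds for Lztfl1 (23282 bases shared with Ccr9) and Lrrc4 (169917 with Snd1). It also holds for Plek (796 with Cnrip1) and Junb (351 with Prdx2).

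Pre-mRNA was higher with IL-10 throughout in a few members. Glrx held 2408 and 1860 normalised pre-mRNA reads under LPS alone, 4583 and 3706 in the IL-10 throughout group, and 1422 and 1030 in the late IL-10 group, ratios of 1.94 and 0.575. Serpinb2 held 1009 and 597.9 under LPS alone, 1862 and 923.3 in the IL-10 throughout group, and 1579 and 857.3 in the late IL-10 group. Both libraries with IL-10 throughout lay above both LPS libraries for Glrx, as for Sod2 and Phlda1, and not for Serpinb2. Phlda1 had few pre-mRNA reads, 31.7 and 44.5 under LPS alone and 80.4 and 65.8 in the IL-10 throughout group. Zc3h12a (1.05), Mmp14 (0.992), Klf7 (0.999) and Cfb (0.986) had pre-mRNA ratios near 1.

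By role, the median pre-mRNA ratio with IL-10 throughout was 0.632 for cytoskeletal and traffic genes (0.236 to 0.895), 0.653 for signalling genes (0.401 to 1.05), 0.726 for receptors (lowest 0.439), 0.752 for secreted proteins (0.332 to 1.73) and 0.753 for enzymes and defence genes (0.231 to 1.94). The values of the classes overlapped. Roles were assigned from textbook knowledge once the members were known.

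**Figure D2:**
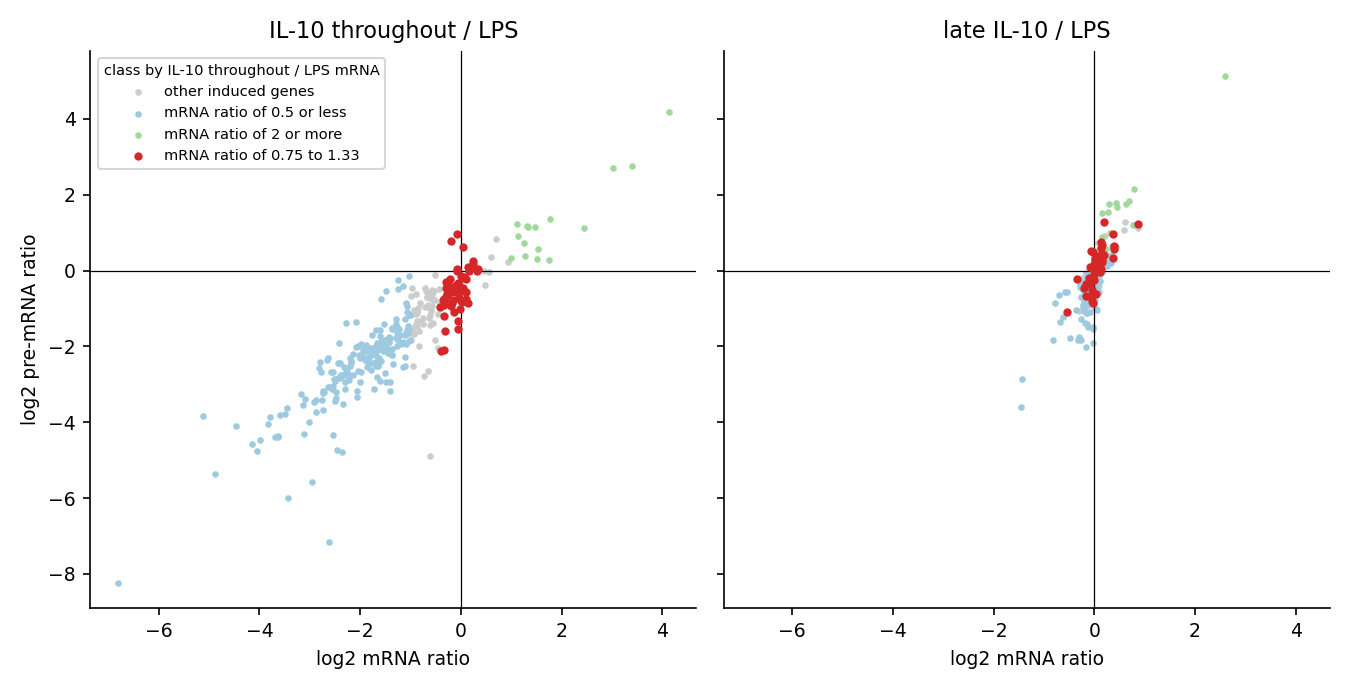
Log2 ratio to LPS of mRNA (horizontal axis) and pre-mRNA (vertical axis) for IL-10 throughout (left) and late IL-10 (right), 1 point per strongly induced gene with at least 50 normalised pre-mRNA reads in LPS, coloured by its mRNA ratio with IL-10 throughout. On the left the members, a vertical band by construction, lie mostly below 0 in pre-mRNA (median ratio 0.706), above most lowered genes (median 0.195), and on the right they lie around 0 (median 1.08).

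The late IL-10 libraries were not used by the rule, but the untreated and LPS libraries were, and late IL-10 and LPS mRNA means lay close together in most genes of the table, as given below. A difference between late IL-10 and untreated cells was therefore largely fixed by the choice of members, and nothing is read from its counts. By mRNA 64 of 64 members passed limma's threshold of an adjusted p under 0.05 and were higher, where 19.3% of the 11415 genes tested were (16.8% were lower), and so did all 61 members with pre-mRNA values, where 21.9% of 11131 genes did (21.6% were lower). The median change was 4.47 in mRNA (2.94 to 9.96) and 4.89 in pre-mRNA (1.58 to 11.67) on the log2 scale of normalised reads + 1. The largest mRNA changes were those of Edn1 (9.96, SE 0.66), Serpinb2 (9.48, SE 0.84) and Fpr2 (9.04, SE 0.37), and the largest in pre-mRNA was that of Fpr2 (11.67, SE 0.20).

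Without late library A the Ccr3 mRNA call was lost (limma adjusted p = 0.0844), as without untreated library B (0.103), and Srgn was lost without untreated library A (0.0621). In pre-mRNA Ccr3, Chac1 and Peg10, a retrotransposon-derived imprinted gene, each lost the call without 1 or more of the libraries (limma adjusted p from 0.0727 to 0.128): Ccr3 without late library A or either untreated library, Chac1 without late library B or untreated library A, and Peg10 without late library B or either untreated library. Scaling to total reads moved the median of all genes by -0.75 in mRNA and -0.88 in pre-mRNA, and 64 and 59 members were then called higher. Over all genes that scaling called 1231 higher and 4567 lower in mRNA, against 2202 and 1918 with the deposited scaling, and 1256 and 4573 in pre-mRNA, against 2437 and 2409.

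Against LPS alone, 30 min of IL-10 left no member past the threshold in the fit without matched libraries. By mRNA 0 of 64 passed limma's test, 0 also at an unadjusted p under 0.05, and limma-voom on the recovered reads called 0 too. The background was 0%, since none of the 11415 genes passed, with 0.806% higher and 0.131% lower at an unadjusted p under 0.05. No difference in mRNA was thus detected for a single gene with these libraries and this scaling. Scaling to total reads called 3 genes higher and the fit with matched libraries 6, none of them a member. The median mRNA change of the members was 0.01 (-0.52 to 0.88), between -0.20 without late library A and 0.17 without late library B, and the 95% interval lay within 1 log2 unit of 0 in 33 of 64 genes. With late IL-10, 61 of 64 mRNA ratios were between 0.75 and 1.33, as for 95.2% of 10447 genes of the table and 93.6% of the 204 lowered genes.

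The highest mRNA ratios of late IL-10 to LPS were those of Edn1 (1.82), Phlda1 (1.34), Casp4 (1.31), Nupr1 (1.31) and Cfb (1.30), the lowest those of Trim13 (0.691), Spaca6 (0.786), Adora2b (0.872), Fpr1 (0.891) and Tarm1 (0.892). For Edn1 the fitted log2 change was 0.88 with a 95% interval from -0.69 to 2.45 and for Trim13 -0.52 with one from -1.73 to 0.68. The log2 change took the other sign without LPS library A for Casp4 (from 0.43 to -0.35), Fpr1 (to 0.48) and Tarm1 (to 0.12), without late library A for Casp4 (to -0.28) and Fpr1 (to 0.30), and without LPS library B for Spaca6 (to 0.01). Those fits did not match the libraries between groups. With libraries matched as described further on, both pairs were higher with late IL-10 for Casp4 and lower for Spaca6. The pairs of Fpr1 and Tarm1 went in opposite directions. Both late libraries lay above both LPS libraries in Nupr1 and Klf7 and below in Adora2b, Fzd1 and Orai2, 2 and 3 of 64 genes, where 6.18% and 5.96% of all genes do so.

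In pre-mRNA the late comparison called 116 of 11131 genes (1.04%), 109 higher (0.979%) and 7 lower (0.0629%), and 0 of 61 members, of which 2 were higher and 2 lower with p below 0.05 before adjustment, where 4.98% and 2.63% of all genes were. Voom weights also gave 0 member calls. Those 4 were Cfb, Stat5a, Trim13 and Glrx. A fit that matched the libraries of the groups by their values, described further on, called Cfb, Trim13 and Glrx. The count over all genes was 34 without late library A, 29 without late library B, 78 without LPS library A and 75 without LPS library B. The members' median change was 0.14 (-1.10 to 3.21, the highest value being that of Ccr3, which has few pre-mRNA reads), and -0.09 without LPS library B. Of the 61 genes 42 were above 0 and 19 below, with 27 above 0 without LPS library B and 33 without late library A.

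Cfb pre-mRNA held 1066 and 1010 normalised reads under LPS alone, 1060 and 987.0 in the IL-10 throughout group, and 2115 and 1960 in the late IL-10 group. Both late libraries were far above the other 4, a change of 0.97 (SE 0.19, 95% interval 0.53 to 1.42), with limma's adjusted p = 0.0753, the smallest of the members, and 0.011 with matched libraries. Stat5a pre-mRNA held 5968 and 3340 under LPS alone, 3456 and 2059 in the IL-10 throughout group, and 14461 and 8015 in the late IL-10 group, a change of 1.27 (SE 0.42, limma adjusted p = 0.371). Edn1 pre-mRNA held 1192 and 514.2 under LPS alone, 1152 and 670.9 in the IL-10 throughout group, and 2714 and 1292 in the late IL-10 group, a change of 1.26 (SE 0.80, limma adjusted p = 1). All 3 genes had both late libraries above both LPS libraries, together with Nupr1, Sod2, F10, Rhbdf2, Bahcc1 and Phlda1, 9 of 61 where 13.1% of all genes do so. Of these, Phlda1 has few pre-mRNA reads.

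Lower pre-mRNA with late IL-10 was seen in Trim13, with 1045 and 909.6 under LPS alone, 820.1 and 473.5 in the IL-10 throughout group, and 537.8 and 383.8 in the late IL-10 group, a change of -1.10 (SE 0.31, limma adjusted p = 0.248, and 0.0256 with matched libraries). Glrx, whose values are above, had a difference of -0.81 (SE 0.25, limma adjusted p = 0.324, and 0.0175 with matched libraries). Acsl1 held 33246 and 19405 under LPS alone, 22583 and 17052 in the IL-10 throughout group, and 16298 and 12753 in the late IL-10 group, a change of -0.82 (SE 0.36, limma adjusted p = 0.68). Ehd1 had a ratio of 0.645 and Fpr1 of 0.633. In 10 of 61 genes both late libraries were below both LPS libraries, where 14.1% of all genes do so: Acsl1, Adora2b, Ehd1, Fpr1, Glrx, Lztfl1, Orai2, Spaca6, Tarm1 and Trim13. Glrx pre-mRNA was thus above LPS with IL-10 throughout and below it with late IL-10. The difference between the IL-10 groups was not tested.

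**Figure D3:**
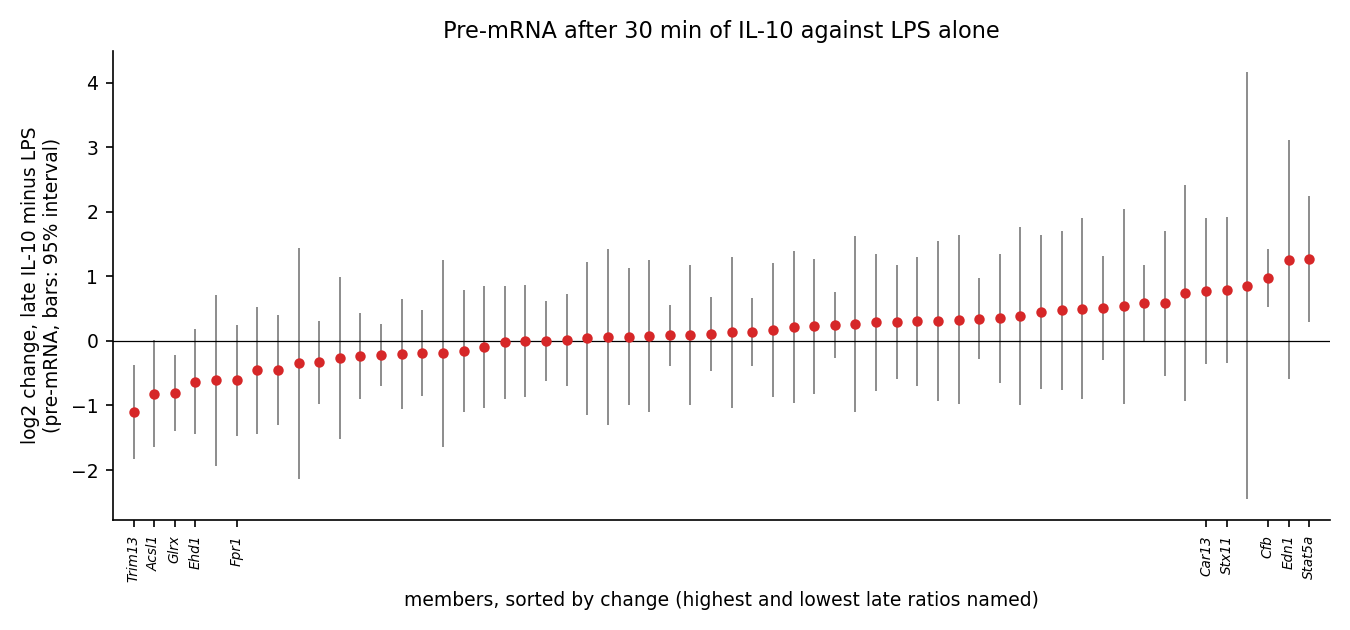
Log2 change of pre-mRNA in late IL-10 against LPS for the 58 members with at least 50 normalised pre-mRNA reads in LPS, sorted, with limma's 95% intervals (n = 2 libraries per group). Changes run from -1.10 (Trim13) to 1.27 (Stat5a), and most intervals cross 0.

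The 2 libraries of a treated group differed for the members in a repeated way. In mRNA 43 of the 64 genes were higher in LPS library B, IL-10 throughout library A and late library A than in the other library of the same group, among them Sdc4, Jak2, Stat5a, Serpinb2 and Casp4, and 11 were lower in all 3, among them Gpr84, Fpr1, Junb and Peg10. These 2 patterns held 84.4% of the members and 75.2% of all genes. The columns carry no replicate numbers, and whether those libraries come from the same pool is not given in the labels. Across 11273 genes, which are not independent, the log2 difference between libraries A and B had a Pearson correlation of -0.769 between LPS and IL-10 throughout, -0.856 between LPS and late IL-10 and 0.799 between the IL-10 groups in mRNA. In pre-mRNA, over 10536 genes, these were 0.618, 0.756 and 0.679. With the untreated group they lay between 0.335 and 0.391 in size. Libraries that deviate together are LPS B with the A libraries of the other groups in mRNA, and library A with library A in pre-mRNA, where A and B are named by size factor for each measure on its own. With libraries matched in this way, Casp4 mRNA, taken as an example, was higher with late IL-10 in both, from 4415 to 5649 and from 1517 to 2138. It was lower with IL-10 throughout in both, from 4415 to 3084 and from 1517 to 1395.

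A limma fit with the matched libraries as a block was added after the data were seen. Because the match was read from the same values, its p-values are not those of a design with known pools. Against LPS alone, late IL-10 then had 3 of 61 members past the threshold in pre-mRNA, Cfb higher and Trim13 and Glrx lower, among 334 genes higher and 144 lower of all genes. In mRNA it had 0 of 64 members, among 6 genes higher and 0 lower. Il10 mRNA was split alike: 524.5 and 3171 under LPS alone, 5212 and 923.4 in the IL-10 throughout group, and 6199 and 1556 in the late IL-10 group. The 95% intervals of the members had a median half-width of 0.89 in mRNA and 1.03 in pre-mRNA on the log2 scale.

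**Figure D4:**
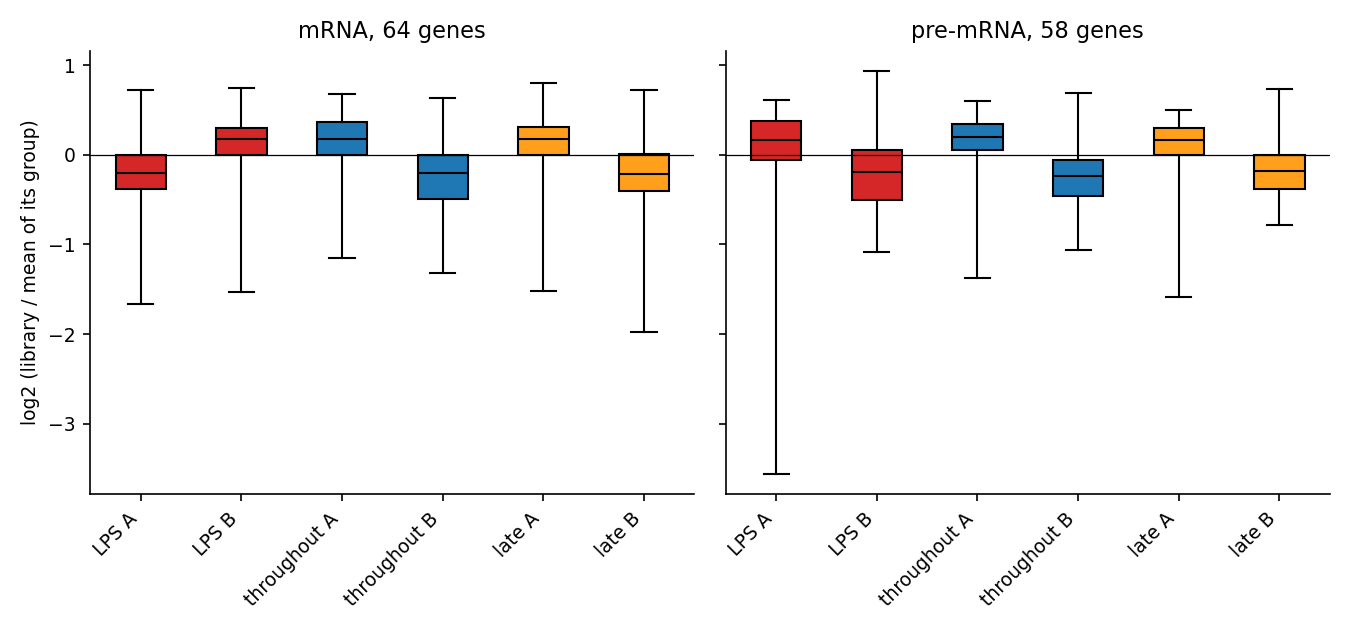
Log2 of each library's value over its group's mean for the members, mRNA on the left (64 genes) and pre-mRNA on the right (58 genes). Boxes show the quartiles and the median, whiskers the lowest and highest gene. In mRNA the medians of LPS library B, IL-10 throughout library A and late library A lie above 0 and those of the other libraries below.

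The pathway lists place the members among the genes around them. Before genes were dropped by name, 437 genes of the table met the induction thresholds, against 64 members. Of 31 genes of MAP kinase to AP-1 signalling 6 met those thresholds, and Junb and Mapkapk2 were members. Of 50 interferon-stimulated genes 42 met them, none was a member and 39 were in the lowered class. Of 30 genes of the IL-10 receptor and STAT3 response 4 met them, and of 35 genes of TLR4 to NF-kB signalling, some of whose names the rule dropped, 11 did. None of either list was a member. The 11 TLR4 to NF-kB genes had all been dropped by name, so none could be a member. Among them Tnfaip3, Tnip1 and Nfkbia had ratios inside the window. The IL-10 list had only 4 induced genes, some also dropped by name, and nothing is read from either absence. Against untreated cells LPS raised 25 of the 35 TLR4 to NF-kB genes by mRNA and lowered 2 (limma, where 19.2% and 16.5% of all genes were called), 10 and 1 of 30 MAP kinase genes, 49 and 0 of 50 interferon-stimulated genes and 14 and 3 of 29 genes of the IL-10 response. The 10 include Junb and Mapkapk2, which the rule chose for it.

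With IL-10 throughout, 0 of 50 interferon-stimulated genes passed limma's threshold in mRNA, where 1.19% of all genes were higher and 1.05% lower, with 39 lower and 0 higher at an unadjusted p under 0.05 and a median change of -1.70, and 29 of 50 were called lower in pre-mRNA and 0 higher, where 4.26% and 2.44% of all genes were. The IL-10 response list had 11 of 29 genes higher and 1 lower in mRNA, including Stat3, Il4ra, Bcl6 and Timp1 among the higher. The TLR4 to NF-kB list had 1 gene higher (Tnip3) and 2 lower (Ticam2 and Irak2) of 35, and the MAP kinase list 2 higher (Fos and Batf) and 1 lower (Egr2) of 30, with medians of -0.29 and -0.18. With late IL-10 limma called 0 genes of the 4 lists in mRNA, limma-voom likewise 0 of all genes, and at an unadjusted p under 0.05 there were 13 higher in the IL-10 response, 3 in TLR4 to NF-kB, 1 in MAP kinase and 0 in interferon-stimulated genes, and none lower. In pre-mRNA 10 of 29 genes of the IL-10 response were higher, where 0.979% of all genes were, with 1 of 35 (Tnip3), 1 of 27 (Batf) and 0 of 50 in the other lists.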

How the data were processed

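RNA of 8 libraries, 2 in each of 4 groups, was measured. The deposited table gives signal values made by the authors, per gene and group: the mean over libraries of reads divided by a size factor, for mRNA and pre-mRNA. The submitters' processing notes name Trim Galore, DESeq and mm10, without versions. How pre-mRNA reads were assigned, and whether counting used strand, is not given in the sources used here.

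Each mean had 1 solution as a pair of whole read counts divided by the libraries' factors (100% of values, within a relative error of 2e-14), so single-library values were recovered, with depths from 8661271 to 53172133 reads. The columns name no replicate, so libraries were called A (larger size factor) and B within each group and measure. Library A of one group and of another need not share a pool. The p-values measure the spread between these libraries.

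limma 3.58.1 (limma-trend, R 4.3.3) was fitted to log2(normalised reads + 1) of all 8 libraries of a measure, over genes with a mean of at least 1, with Benjamini-Hochberg adjustment over all genes and a threshold of 0.05. limma-voom, other pseudocounts, filters and scalings, leaving out single libraries and, added after the data were seen, a block of libraries matched by their values were alternatives. The code was tested on simulated data. Tables were handled with Python 3.11.15, pandas 2.3.3 and numpy 2.4.6.

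The members and lists were chosen with earlier results of these data known. For members, contrasts among untreated, LPS and IL-10 throughout are values without a test, since the rule used them. Members were named by level and induction (12 highest each), by late ratio (5 highest and 5 lowest per measure), by pre-mRNA ratio with IL-10 throughout (6 highest and 6 lowest), by difference between LPS libraries (5) and at the thresholds (3 on each side, where as many exist). Others are named for their role or libraries, chosen after their values were seen, as were motifs and stretches. The values of a single member are not reported here.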

Additional observations from a re-analysis of the deposited data

How the results depend on the processing

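The columns carry no replicate numbers, so the pairing of libraries is not known. A replicate block of libraries matched by their values, added after the data were seen, called 3 members in late IL-10 against LPS in pre-mRNA and 0 in mRNA, and 64 and 61 members against untreated cells in mRNA and pre-mRNA. Over all genes that block called 3654 higher and 3303 lower against untreated cells in mRNA, and 3605 and 3380 in pre-mRNA, with the numbers without it given above. The number of genes meeting the rule was 132 with a ratio window of 0.5 to 2, 148 with an induction of 4 or more and 37 with one of 16 or more, and ranged from 43 to 78 when 1 library was left out. No other alternative called a member in late IL-10 against LPS, in either measure. Over all genes the pre-mRNA calls in that comparison were 109 higher and 7 lower, against 59 and 6 without the filter and 35 and 0 with only the 2 groups compared. Against untreated cells 63 to 64 members were called in mRNA and 58 to 60 in pre-mRNA when 1 library was left out. Limma-voom called 62 and 60. When 1 library was left out, 10 of the single-gene log2 changes followed in late IL-10 against LPS changed sign, and the cause was not tested. Their ranges were, in mRNA, Acsl1 (-0.29 to 0.24), Car13 (-0.50 to 0.75), Casp4 (-0.35 to 1.20), Fpr1 (-0.70 to 0.48), Glrx (-0.19 to 0.11), Spaca6 (-0.64 to 0.0081), Stat5a (-0.54 to 0.94), Stx11 (-0.20 to 0.54) and Tarm1 (-0.41 to 0.12), and in pre-mRNA Casp4 (-0.10 to 1.60). The fits without 1 library did not match the libraries between groups. With libraries matched by their values, both mRNA pairs were higher with late IL-10 for Car13, Casp4, Stat5a and Stx11. Both were lower for Acsl1, Glrx and Spaca6, and the pairs of Fpr1 and Tarm1 went in opposite directions. Casp4 pre-mRNA was higher with late IL-10 in both pairs. Libraries of 2 per group limit what can be seen: 33 of 64 mRNA intervals and 13 of 61 pre-mRNA intervals lay within 1 log2 unit of 0.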
